A study of Mus musculus with 6 samples.

Results

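Myh7 and Runx1 are genes known from cardiac remodelling, described here in reperfused mouse hearts. They were chosen as the rows of the deposited comparison table whose symbol is Myh7 or Runx1, 2 of the 149 genes in that table. The table compares TMAO+IR hearts with IR hearts, 3 libraries each, all from wild-type male C57BL/6 mice. In TMAO+IR mice, 0.12% trimethylamine N-oxide (TMAO, an oxidation product of gut microbial trimethylamine) was given in the drinking water for 4 weeks and through the operation, while no TMAO is named for IR mice. In both groups the left anterior descending artery of the heart was ligated through an opened chest for 45 min and released for 24 h, and poly(A) RNA of the injured region was sequenced. The labels give no age, and no unoperated heart was analysed here. The labels number the libraries without naming animals, so the spread between them may be technical. The authors listed a gene only when it differed between these same groups, so the differences below describe what chose the genes and are given without a test.

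Myh7 encodes the beta heavy chain of cardiac myosin, the slow motor of the thick filament. In mice it is the main ventricular isoform before birth, gives way to the faster alpha isoform of Myh6 in the adult, and returns in stressed ventricles. Runx1 encodes a transcription factor that binds DNA as a dimer with the Cbfb product. It is required for blood formation, is present in many leukocytes, and is known in mice to be induced in cardiomyocytes bordering an infarct. In bulk tissue, more cells of a type and more RNA per cell cannot be told apart.

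Myh7 (ENSMUSG00000053093) occupies chr14:54970684-54994626 of GRCm38 (minus strand), with 8 annotated transcripts in GENCODE. Its neighbour Myh6 starts 3756 bases beyond its end on the same strand. Runx1 (ENSMUSG00000022952) spans 224684 bases of the minus strand of chromosome 16, from 92601466 to 92826149, with 7 annotated transcripts. RefSeq gives Runx1 a distal and a proximal start 128745 bases apart, and gives Myh7 a pair of starts 77 bases apart. The stretches of 250 bases before these starts (RefSeq, GRCm38.p6, minus strand, 5′ to 3′) are shown because they differ in make-up, with capitals for the letters GGAATG, the core of the M-CAT element bound by TEAD factors, and for CANNTG, the E-box, on either strand.
Myh7, chr14:54994627-54994876: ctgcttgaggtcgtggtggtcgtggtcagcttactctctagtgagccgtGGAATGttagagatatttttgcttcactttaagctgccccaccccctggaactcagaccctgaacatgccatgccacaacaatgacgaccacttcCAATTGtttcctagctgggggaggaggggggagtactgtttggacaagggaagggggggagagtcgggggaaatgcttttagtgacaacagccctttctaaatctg
Runx1 distal, chr16:92826075-92826324: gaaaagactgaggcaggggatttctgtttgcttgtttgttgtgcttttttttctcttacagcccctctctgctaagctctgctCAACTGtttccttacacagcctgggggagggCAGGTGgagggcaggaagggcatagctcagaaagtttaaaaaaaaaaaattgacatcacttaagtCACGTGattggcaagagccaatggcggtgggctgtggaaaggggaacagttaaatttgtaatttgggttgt
Runx1 proximal, chr16:92697330-92697579: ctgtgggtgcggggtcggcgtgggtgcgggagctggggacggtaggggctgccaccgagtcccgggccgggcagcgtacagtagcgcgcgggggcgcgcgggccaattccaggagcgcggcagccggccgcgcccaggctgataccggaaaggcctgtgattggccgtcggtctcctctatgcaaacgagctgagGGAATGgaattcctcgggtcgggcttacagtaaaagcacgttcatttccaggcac

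The proximal Runx1 window of 300 bases, from 250 before to 50 after the start, held 35 CG pairs at 69.0% GC. The distal Runx1 window held 2 CG pairs at 45.0% GC, and the window of the first Myh7 start held 5 at 54.3%. The GGAATG core began 201 bases before the first Myh7 start and 55 bases before the proximal Runx1 start. It was chosen after the letters were seen, and 14.7% of all 32851 RefSeq windows of this length held it on either strand. The longer form AGGAATG was found in neither gene and in 5.36% of all windows. E-box letters were in 72.3% of all windows, so their presence in the Myh7 and distal Runx1 windows sets neither gene apart. The AP-1 letters TGANTCA, the GATA letters AGATAA and the TATA letters TATAAA were in none of the windows of Myh7 or Runx1, against 7.81%, 11.2% and 13.6% of all windows. The letters GGAAA, the core bound by NFAT factors, were in every window of both genes and in 61.3% of all windows. These searches show letters in these windows and nothing about binding.

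The letters TGTGGT, which RUNX proteins recognise, were found in the distal Runx1 window on the opposite strand (ACCACA) at 29 and 37 bases after the start, and in 16.8% of all windows. Before the second Myh7 start, the TATA-like letters TATATA, also chosen after the sequence was seen, began 31 bases upstream, and 5.67% of all windows held them. These short stretches are shown with those letters in capitals.
Runx1 distal, chr16:92826025-92826052: taaacaACCACAgaACCACAagttgggt
Myh7 second start, chr14:54994562-54994591: ctgctgccccaTATATAcagcccctgagac

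The Myh7 transcript also carries a microRNA gene. Mir208b lies within intron 31 of the 41-exon transcript Myh7-201, and its relative Mir208a lies in intron 29 of the 39-exon transcript Myh6-201. Oligo(dT) libraries do not measure mature microRNAs, so neither has a value here. Their 3p strands are shown because they share the seed (bases 2 to 8, in capitals) and 19 of 22 positions.
mmu-miR-208b-3p, chr14:54975710-54975731: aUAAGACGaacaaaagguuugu
mmu-miR-208a-3p, chr14:54949072-54949093: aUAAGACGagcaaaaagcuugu

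**Figure D1:**
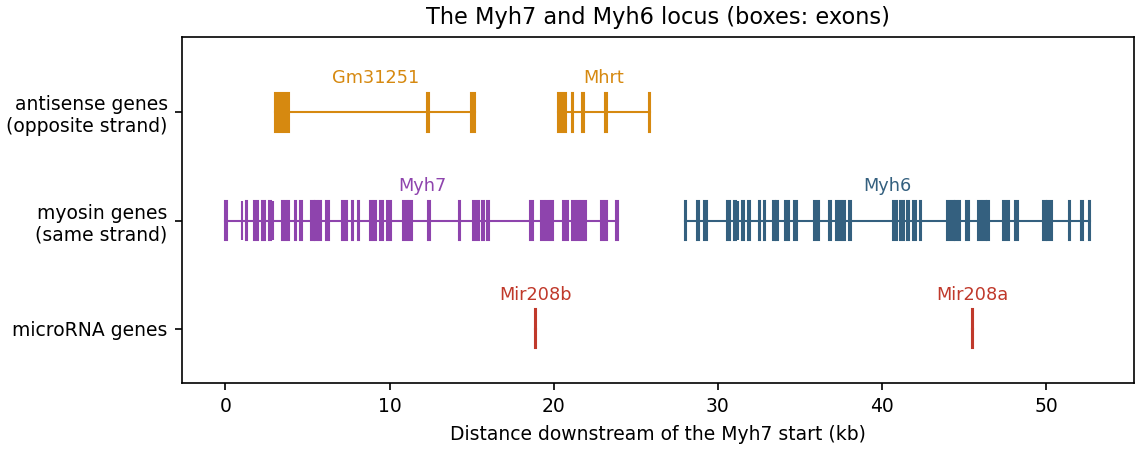
Map of the Myh7 and Myh6 locus, with distance downstream of the Myh7 start in kb on the horizontal axis, exons as boxes, and 1 row each for antisense, myosin and microRNA genes. Mhrt and Gm31251 lie opposite Myh7 exons, and Mir208b lies within Myh7.

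Myh7 was higher in TMAO+IR hearts than in IR hearts, and every TMAO+IR library stood above every IR library. Its level was 27.5, 29.3 and 56.5 FPKM (fragments per kilobase of transcript, scaled to sequencing depth) in TMAO+IR replicates 1, 2 and 3, against 12.5, 8.90 and 6.29 FPKM in IR replicates 1, 2 and 3. TMAO+IR replicate 3 had by far the highest level, nearly that of the other TMAO+IR libraries together, and the lowest TMAO+IR library was still 2.20-fold above the highest IR library. The group means were 37.8 ± 16.2 FPKM in TMAO+IR and 9.24 ± 3.13 FPKM in IR (SD, n = 3 each). The log2 fold change in the authors' deposited table was 2.03, with an FDR (adjusted p-value) of 6.09e-09.

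Reads of Myh7 numbered 3040, 3791 and 7052 in the TMAO+IR libraries, against 1523, 786 and 865 in the IR libraries. Library totals were not used here, so each depth was worked out from counts divided by FPKM, as 18370997 to 21534145 fragments in TMAO+IR and 20681799 to 22442237 in IR. On that scale Myh7 had 165, 176 and 339 CPM (counts per 1000000 recovered fragments) in TMAO+IR, against 73.6, 35.7 and 38.5 in IR. The 95% counting intervals (exact Poisson) were narrow, 331 to 347 CPM for TMAO+IR replicate 3 and 33.3 to 38.3 for IR replicate 2. The spread of Myh7 within each group was therefore wider than counting error. With edgeR over all 149 genes the fold change was 4.60 (log2 2.20, SE 0.43). That SE comes from a spread shared over the listed genes, not from Myh7 alone. Without TMAO+IR replicate 3 the log2 fold change was 1.79, and without IR replicate 1 it was 2.61.

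Runx1 was higher in TMAO+IR hearts on average, with a smaller difference than Myh7 and with groups that met at their edges. Its level was 3.93, 4.51 and 2.55 FPKM in TMAO+IR replicates 1, 2 and 3, against 1.40, 2.59 and 1.38 FPKM in IR replicates 1, 2 and 3. TMAO+IR replicate 3 stood just under IR replicate 2, so the groups overlapped in FPKM. The group means were 3.66 ± 1.01 FPKM in TMAO+IR and 1.79 ± 0.693 FPKM in IR (SD, n = 3 each). The log2 fold change in the authors' deposited table was 1.03, with an FDR of 0.0239.

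Runx1 reads numbered 217, 303 and 175 in the TMAO+IR libraries, against 98, 172 and 90 in the IR libraries. In CPM these were 11.8, 14.1 and 8.40 in TMAO+IR, against 4.74, 7.82 and 4.01 in IR. On this scale the groups no longer overlapped, but the 95% counting interval of TMAO+IR replicate 3 (7.20 to 9.74) overlapped that of IR replicate 2 (6.70 to 9.08). A difference between these libraries was not detectable at this depth. The fold change from counts was 2.07 (edgeR, log2 1.05, SE 0.34). It lay between log2 0.86 without IR replicate 3 and 1.38 without IR replicate 2. Scaled within the list by TMM, which centres genes chosen for their change, the log2 values were 1.22 for Myh7 and 0.034 for Runx1, while the median of all listed genes moved from 1.16 to 0.14.

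**Figure D2:**
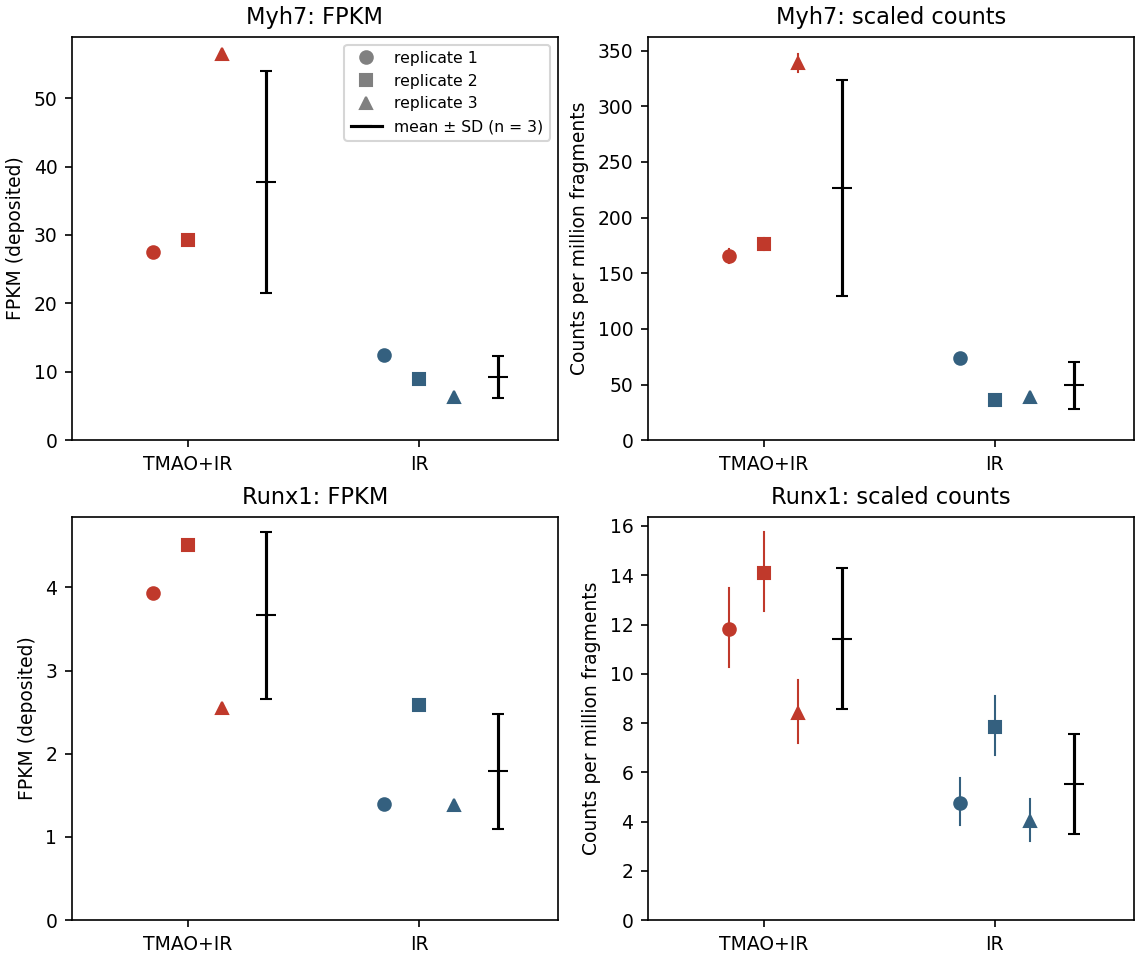
Level of Myh7 (top) and Runx1 (bottom) in each library, as deposited FPKM on the left and as CPM on the right, with TMAO+IR in red and IR in blue. Black bars are mean ± SD (n = 3) and coloured bars are 95% counting intervals. Myh7 groups stand apart on both scales, while for Runx1 TMAO+IR replicate 3 (2.55 FPKM) lies beside IR replicate 2 (2.59 FPKM).

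All 149 listed genes (100%) had passed the authors' limits of an FDR under 0.05 with a log2 fold change of 1 or more in size, and 122 of them (81.9%) were higher in TMAO+IR. In FPKM, 116 genes (77.9%) had every TMAO+IR library above every IR library, Myh7 among them and Runx1 not. On the CPM scale, every TMAO+IR library was above every IR library in 120 genes (80.5%), both Myh7 and Runx1 among them. Runx1 was 1 of 6 higher genes that overlapped in FPKM, with Dnaja1, Slfn8, Asb4, Scai and Fosl1. Since the list was selected on this difference, nothing is read from these shares.

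In the order of deposited log2 fold change Myh7 was 10 of the 122 higher genes and Runx1 was 113. Just above Myh7 stood Ifi213 (log2 2.07), an interferon-inducible gene, and just below it Inhba (1.98), which encodes the activin A subunit, both in the authors' deposited table. Runx1 stood near the limit of the list in the authors' deposited table, between Pde4b (log2 1.03), a cAMP phosphodiesterase gene, and Lrrc32 (1.03). Below Runx1 stood 9 higher genes, down to Cyp1b1, which lay at the limit. By p-value in the authors' deposited table Myh7 was 2 of 149 and Runx1 was 125, and 23 genes had an FDR above that of Runx1, up to 0.0487 for Aim2.

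**Figure D3:**
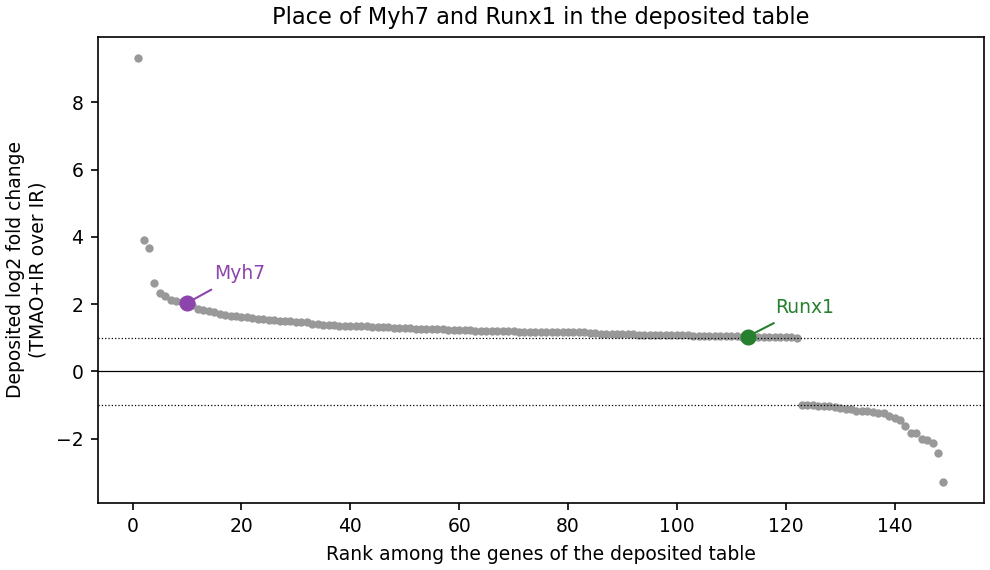
Deposited log2 fold change (TMAO+IR over IR) of the 149 listed genes by rank, with dotted lines at the list's limits of 1 and -1. Myh7 (2.03) lies at rank 10 and Runx1 (1.03) at rank 113, close to the limit.

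The deposited FPKM and the counts of Myh7 did not follow each other in 1 library. Count divided by FPKM and by recovered depth gives an implied transcript length, which need not be that of any single transcript. For Myh7 this was 6009, 6006 and 5997 bases in the TMAO+IR libraries, against 5882, 4016 and 6128 bases in IR replicates 1, 2 and 3. The full coding transcripts Myh7-201 and Myh7-204 are 6135 and 6230 bases long, and the longest of the others is Myh7-202, a retained-intron transcript of 3769 bases. IR replicate 2 was thus 33.1% off the median of the other 5 libraries, which lay close together near full length. Among the 86 listed genes that no library had below 1 FPKM, the median of this largest deviation was 4.54%. In 16 of them it was at least 20%, and Myh7 was at rank 6.

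In IR the order of Myh7 levels depended on this. In CPM, IR replicate 2 was the lowest (35.7), just under IR replicate 3 (38.5), while in deposited FPKM it stood above IR replicate 3 (8.90 against 6.29). At a single length of 6002 bases, a calculation made after the lengths were seen, the level in IR replicate 2 would be 5.96 FPKM. The means would then be 37.8 ± 16.2 FPKM in TMAO+IR and 8.22 ± 3.52 FPKM in IR, a log2 ratio of 2.20. The cause of the shorter length was not tested.

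For Runx1 the implied length was 3006, 3120 and 3295 bases in the TMAO+IR libraries, against 3385, 3020 and 2906 bases in the IR libraries. All 6 libraries lay between the short coding transcript Runx1-203 (1985 bases), which starts downstream of the proximal promoter, and the long coding transcripts Runx1-202 (4738 bases, proximal start) and Runx1-201 (5861 bases, distal start). Nearer on either side lay the processed transcript Runx1-207 (2538 bases) and the retained-intron transcript Runx1-206 (3815 bases). The groups overlapped in implied length, and the largest deviation, 12.1% in IR replicate 1, was at rank 27 of the 86 genes. At a single length of 3070 bases, TMAO+IR replicate 3 would have 2.74 FPKM against 2.55 in IR replicate 2. Which promoter the Runx1 reads came from was not tested.

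**Figure D4:**
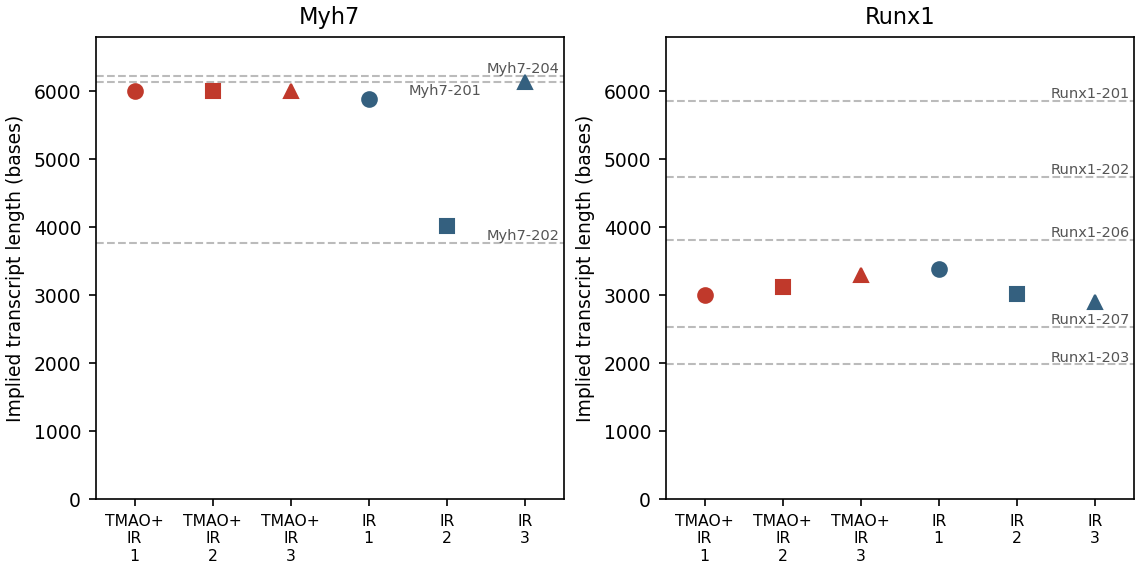
Implied transcript length (bases) of Myh7 and Runx1 in each library, with TMAO+IR in red and IR in blue, and dashed lines at the lengths of the longer annotated transcripts. For Myh7, 5 libraries lie between 5882 and 6128 bases and IR replicate 2 at 4016, while Runx1 lies between 2906 and 3385 in all 6.

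Within the groups, Myh7 and Runx1 differed most in TMAO+IR replicate 3 and IR replicate 2, while the remaining libraries of each group stood in the same order for both genes in CPM. In TMAO+IR replicate 3, Myh7 was at 1.98 times the mean CPM of the other TMAO+IR libraries and Runx1 at 0.649 times, with a median of 0.726 over the 122 higher genes. In deposited FPKM these ratios were 1.99 for Myh7, 0.604 for Runx1 and 0.712 for the median. In IR replicate 2, Myh7 was at 0.637 times the mean CPM of the other IR libraries and Runx1 at 1.79 times, with a median of 1.40. In deposited FPKM, Myh7 there was at 0.946 times and Runx1 at 1.86 times, with a median of 1.45, so the low place of Myh7 in IR replicate 2 was seen in CPM and hardly in FPKM.

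Runx1, like most higher genes, was lowest of its group in TMAO+IR replicate 3 and highest of its group in IR replicate 2, and Myh7 was neither. In CPM the ratio of Runx1 in IR replicate 2 (1.79) was above the upper quartile of the higher genes (1.64). In CPM, TMAO+IR replicate 3 was the lowest TMAO+IR library in 97 of the 122 higher genes and the highest in 11, and the excess of Myh7 in it was the largest of those 11, ahead of Rab44 (1.47 times the next highest TMAO+IR library) and the transferrin receptor gene Tfrc (1.37 times), against 1.92 times for Myh7. IR replicate 2 was the highest IR library in 88 of the 122 genes and the lowest in 7. In CPM, 1 gene, Myh7, was both highest in TMAO+IR replicate 3 and lowest in IR replicate 2 within its groups, and in deposited FPKM 0 genes were, since IR replicate 2 was then the middle IR library for Myh7. The full CPM order of Runx1, from TMAO+IR replicate 2 down to IR replicate 3, was shared by 27 genes, Runx1 included. The ratio of Myh7 to Runx1 in FPKM was 7.01, 6.50 and 22.1 in the TMAO+IR libraries, against 8.94, 3.44 and 4.56 in the IR libraries, and the groups overlapped.

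**Figure D5:**
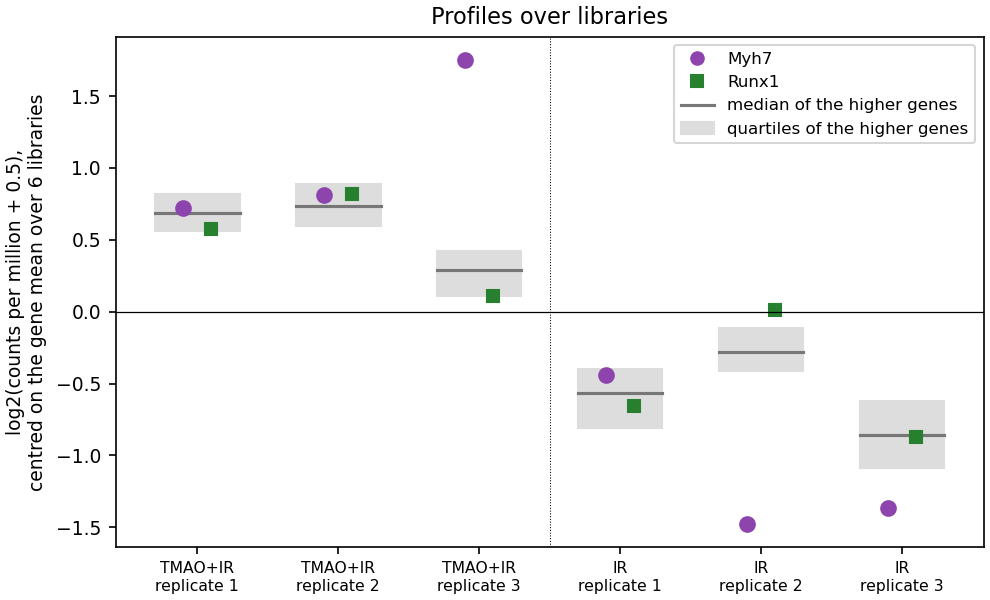
Profile of Myh7 and Runx1 over the 6 libraries, as log2(CPM + 0.5) centred on each gene's mean, with grey boxes and lines for the quartiles and median of the 122 higher genes. Myh7 stands at 1.75 in TMAO+IR replicate 3, where the median is 0.29, and at -1.47 in IR replicate 2, where the median is -0.28, while Runx1 stands at 0.11 and 0.01.

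The spread between libraries was larger for Myh7 than for most higher genes. Its SD of log2 CPM was 0.57 in TMAO+IR and 0.57 in IR, at ranks 14 and 22 of 122. For Runx1 it was 0.36 in TMAO+IR and 0.46 in IR, at ranks 45 and 43. The medians over the 122 genes were 0.29 in TMAO+IR and 0.39 in IR. By mean FPKM, Myh7 was at rank 19 of the 149 listed genes in TMAO+IR and at 31 in IR, and Runx1 was at 77 in TMAO+IR and at 83 in IR.

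Genes nearest in profile were those with the smallest mean absolute difference from the centred log2(CPM + 0.5) profile over the 6 libraries. That measure spans both groups, so the size of the difference that chose the genes enters it. For Runx1 they were Pde4b (0.087), Adamts4 (0.095), which encodes an aggrecanase, the neutrophil chemoattractant gene Cxcl5 (0.099), Olr1 (0.10), which encodes a receptor for oxidised low-density lipoprotein, and the transcription factor gene Klf6 (0.11). The median over the other listed genes was 0.26. With deposited FPKM in place of counts only 1 of these 5 was again among the nearest 5, so the names depend on the scale. Pde4b illustrates the pattern, with 234, 238 and 160 CPM in TMAO+IR, against 91.3, 137 and 88.8 in IR.

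No listed gene came as close to Myh7. Among the nearest were Eno1b (0.33), Slfn4 (0.44), Iigp1 (0.49) and Cd274 (0.49), which encodes the immune checkpoint ligand PD-L1, against a median of 0.66. Eno1b is a retrotransposed enolase copy with 32, 31 and 28 counts in TMAO+IR, against 6, 0 and 0 in IR, so its place rests on few reads. Whether these reads can be told apart from those of another enolase gene was not tested. Runx1 itself was at rank 77 in likeness to Myh7 (0.67). The full CPM order of the libraries in Myh7 was shared by no other higher gene, so these neighbours do not repeat it.

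Listed genes of the same pathways were counted, but the share of all measured genes that were listed was not worked out here. Of 39 genes of the cardiac stress and fetal programme, 4 were listed, 3 higher and 1 lower, with a median log2 fold change of 1.25 in the authors' deposited table against 1.17 over all listed genes. Beside Myh7 and Runx1 these were Gdf15, a stress-induced cytokine (5.87 ± 2.68 FPKM in TMAO+IR and 2.11 ± 0.839 in IR), and Ctf1, the cardiac cytokine cardiotrophin 1 (1.76 ± 0.422 FPKM in TMAO+IR and 3.96 ± 0.541 in IR). Of 39 sarcomere genes only Myh7 was listed, and of 39 regulators of myosin isoform and hypertrophy none was. In the annotation deposited with the table, 24 of the 34 gene ontology terms of Myh7 belonged to no other listed gene. Among them were sarcomere, myofibril, cardiac muscle contraction and skeletal muscle contraction. Runx1 had 1 such term of 17, positive regulation of granulocyte differentiation. The only term that Myh7 and Runx1 shared was ATP binding.

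Of 39 RUNX factors, partners and cofactors, 3 were listed and all 3 were higher, as were 81.9% of all listed genes. They were Runx1 and the AP-1 genes Fos (146 ± 52.3 FPKM in TMAO+IR and 51.2 ± 16.5 in IR) and Jun (90.0 ± 39.0 FPKM in TMAO+IR and 37.1 ± 7.46 in IR), whose products can bind DNA beside RUNX proteins. Their median log2 fold change was 1.28 in the authors' deposited table. Of 31 genes known as RUNX1 targets in blood or heart, 1 was listed, the Wnt modulator gene Sfrp2, with 0.547 ± 0.142 FPKM in TMAO+IR and 1.38 ± 0.550 in IR. Of 24 immediate early genes 8 were listed, all higher (median log2 fold change 1.22), and of 28 matrix and fibroblast activation genes 6 were, all higher (1.32), beside 81.9% higher and a median of 1.17 over all listed genes in the authors' deposited table. Fos and Jun stand in both the RUNX and the immediate early list, and Mmp8 in both the matrix and the neutrophil list. Of 10 apoptosis and p53 target genes 1 was listed, Pmaip1, with 0.637 ± 0.051 FPKM in TMAO+IR and 0.197 ± 0.042 in IR. Absence from the table says only that a gene is not among the 149 analysed here.

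Markers of other cells were counted in the same way, against 122 of 149 (81.9%) higher among all listed genes, so that nothing about a cell type is read from their direction. Of 18 macrophage and monocyte markers 2 were listed, Ccr2 and Chil3, and together they had 5.09 to 11.2 CPM in TMAO+IR, against 2.14 to 3.68 in IR. Of 17 neutrophil markers 2 were listed, Mmp8 and Slfn4, with 33.4 to 39.6 CPM in TMAO+IR, against 11.8 to 21.1 in IR. The platelet marker Ppbp, 1 of 9, had 5.86 to 9.85 CPM in TMAO+IR, against 2.76 to 4.50 in IR. Their part in the Runx1 difference was not tested. The erythrocyte marker Slc4a1, 1 of 7, had 0.384 to 0.708 CPM in TMAO+IR, against 1.02 to 2.23 in IR, and the endothelial marker Ackr1, 1 of 11, had 2.11 to 2.97 in TMAO+IR, against 0.910 to 1.02 in IR. None of the 13 cardiomyocyte, 6 atrial, 10 skeletal muscle, 14 lymphocyte, 8 mast cell, 11 fibroblast, 10 smooth muscle and pericyte, 6 mesothelial or 8 lung and thymus markers was in the table. The labelled heart tissue could therefore not be checked against its markers here. Myh7 itself does not serve as such a check, since its deposited annotation also holds skeletal muscle contraction.

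Myh7 shares sequence with other genes, and Runx1 hardly does. The transcripts Myh7-204 and Myh6-201 were identical at 87.4% of aligned positions. Of the 100-base windows of Myh7-204, 11.2% occurred unchanged in a Myh6 transcript, and 13.9% in some transcript of another gene on either strand. For 50-base windows the Myh6 share was 22.2% and for 150-base windows 5.43%. For Runx1-201 the share of 100-base windows found in another gene was 0.12%, all antisense in Gm26626. Reads from shared stretches could be counted for either myosin, and no source used here says how the authors assigned them. The level of Myh7 is therefore uncertain. The shares above do not bound that error, which also depends on the level of Myh6, a gene that was not listed.

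The longest run that Myh7 and Myh6 share without a difference was 245 bases, in exons 32 and 33 of Myh7-204 (chr14:54974947-54975347, with an intron between) and in exons 30 and 31 of Myh6-201. It is shown because any read within it fits both genes. Its letters, in transcript direction, come from GENCODE on GRCm38.
Myh7 and Myh6: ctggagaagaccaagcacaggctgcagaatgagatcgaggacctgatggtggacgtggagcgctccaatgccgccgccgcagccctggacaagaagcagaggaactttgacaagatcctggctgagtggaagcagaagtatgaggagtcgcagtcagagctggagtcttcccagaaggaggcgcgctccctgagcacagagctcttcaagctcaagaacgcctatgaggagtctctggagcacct

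Antisense genes also overlap Myh7. The long non-coding RNA gene Mhrt, known from mouse heart, shares 484 of the 8616 exonic bases of Myh7 (5.62%), Gm31251 shares 523 (6.07%) and Gm29015 shares 142 (1.65%). The exons of Runx1 share 106 of 12025 bases (0.88%) with the antisense gene Gm26626. The labels' library protocol names no step that marks strand, so the gene of a read that lies within these shared bases is uncertain.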

How the data were processed

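The authors deposited 1 table of 149 genes with whole-number read counts and FPKM values per library, their mean FPKM per group, a log2 fold change of those means, and a p-value with its adjusted value (FDR). Per the submitters' processing notes the tools included HISAT2, StringTie 1.3.1, edgeR, DESeq2, Bowtie2 2.2.8 and fastp 0.18.0, on GRCm38, with no role or order given. Columns headed T-IR were matched to the group TMAO+IR, the only one besides IR.

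Depth was recovered from count over FPKM in the 86 genes that no library had below 1 FPKM, its absolute size from 12 genes with a single transcript in GENCODE release M21, which held all 149 identifiers. Intervals are 95% exact Poisson and cover counting error only. Counts were fitted with edgeR 4.0.16 (quasi-likelihood, R 4.3.3) over all 149 genes at the recovered depths, without a filter or further scaling, and no p-value of that fit is given. The fit was tested on simulated data. Alternatives were DESeq2 1.42.0, limma 3.58.1 on log2(FPKM + 0.1) and log2(FPKM + 1), TMM scaling, a minimum mean of 50 counts, the replicate block and leaving out each library. Named are Myh7 and Runx1, listed members of the gene lists, the 5 genes nearest in profile (1 of those of Myh7 is not reported here) and the neighbours in fold change. Other genes were named after their values were seen. The members and lists were chosen with earlier results of these data known. Protein sequences were not used here.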

Additional observations from a re-analysis of the deposited data

How the results depend on the processing

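The log2 fold changes of Myh7 (2.20) and Runx1 (1.05) stayed positive and within 1 SD of the libraries under DESeq2, limma on FPKM, the ratio of mean FPKM, a minimum mean of 50 counts and the omission of any 1 library. Leaving out a library gave 1.79 to 2.61 for Myh7 and 0.86 to 1.38 for Runx1, and limma on log2(FPKM + 1), which understates low genes, gave 1.89 for Myh7 and 0.74 for Runx1. TMM scaling within the list, which centres genes chosen for their change, moved the median of the list from 1.16 to 0.14 and gave 1.22 for Myh7 and 0.034 for Runx1. The replicate block gave 2.20 for Myh7 and 1.07 for Runx1. Deviations from the group means correlated between libraries of the same number at -0.33, 0.36 and -0.07 (117 genes). Libraries of unlike number were not compared, so these values cannot show whether the numbers pair the libraries. Of the 5 genes nearest to Runx1, 1 was again among the nearest 5 in FPKM, and the cause was not tested. The count of genes highest in TMAO+IR replicate 3 and lowest in IR replicate 2 within their groups, 1 in CPM, was 0 in FPKM, a comparison chosen after seeing the data. Runx1 rests on 90 to 303 reads per library.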
